A study of Mus musculus with 2 samples.

Results

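The Ptn and Lum high cells are the tumour-marker cells of 2 mouse tumour libraries that held the most transcripts of 5 genes of connective tissue: Ptn, Lum, Dcn, Islr and Ogn. They were chosen by measured values. A tumour-marker cell had at least 3000 unique molecular identifiers (UMIs, each a counted transcript molecule) and at least 300 genes, and at most 20% of its UMIs were mitochondrial. It also had at least 300 CPM (UMIs scaled to a total of 1000000) over 4 genes of the tumour line, which are Wnt7b, Hmga2, Igf2bp1 and Igf2bp2, and under 300 CPM over the immune genes C1qa, C1qb and Ptprc. Of 8280 such cells among 17864 barcodes, the 10% with the highest summed CPM of the 5 genes were selected, 828 cells in all. The control library gave 284 of its 3169 tumour-marker cells, or 8.96% (exact 95% Clopper-Pearson interval 7.99 to 10.0). The anti-PD-1 library gave 544 of 5111, or 10.6% (9.81 to 11.5). Below, these cells are set against the other 2885 control and 4567 anti-PD-1 tumour-marker cells.

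The tumours grew under the skin of mice from LLC cells, the Lewis lung carcinoma line of mouse. The control mice received an IgG2a isotype antibody, although the series text calls the control cells untreated. The treated mice received anti-PD-1 antibody, which blocks a receptor that restrains T cells, and their cells were taken 7 days later. All animals carried the same tumour line; mouse strain, age and the number of mice behind a library are not given in the sources used here. Each condition was 1 library, so no test between conditions was possible, and all intervals cover counting error only.

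Pleiotrophin, encoded by Ptn, is a secreted heparin-binding growth factor that acts through the phosphatase receptor Ptprz1, syndecans and other surface molecules. Lumican, decorin and osteoglycin, encoded by Lum, Dcn and Ogn, are small leucine-rich proteoglycans that bind collagen fibrils and set their spacing, and Islr encodes a related leucine-rich protein of mesenchymal cells. All are classic products of fibroblasts, which in tumours also make type I collagen in bulk, so cells that hold these transcripts beside tumour genes may be read as tumour or as stroma.

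The libraries held 113268618 and 115407230 UMIs, control first, as in every pair of values below. The Ptn and Lum high cells were shallower than the other tumour-marker cells, with a median of 10332 against 17577 UMIs in control and 8834 against 13957 in anti-PD-1. Of the barcode sequences, 107 occurred in both libraries, and 0 of them were selected cells in both. Tumour-gene UMIs were also found in cells with lymphocyte genes, and the parts of free RNA and doublets in this were not tested. T and NK cells were called by at least 3000 UMIs and at least 300 CPM over Cd3d, Cd3e, Ncr1 and Nkg7. Tumour-marker cells were not kept out of this class, so some of its cells may be tumour cells. Of these, 95 of 151 control cells (62.9%) and 45 of 76 anti-PD-1 cells (59.2%) reached the tumour-gene limit. The five-gene limit was reached by 17 and 5 T and NK cells. Passing the tumour-gene limit was therefore not taken by itself as the mark of a tumour cell.

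The five-gene sum ran without a gap through the limit. The lowest selected cell had 1924.93 CPM and the highest unselected cell 1924.82 CPM. Ptn stood at 2320 CPM in the selected control cells and 3278 CPM in the selected anti-PD-1 cells, against 156 and 173 CPM in the others. Its median over selected control cells was 2159 CPM, with 10% of the cells under 972 and 10% over 4972 CPM. In anti-PD-1 the median was 2960 CPM, with the same limits at 875 and 8074 CPM. Lum stood at 416 and 689 CPM against 33.2 and 28.6 CPM, Dcn at 744 and 1031 against 48.9 and 46.4, Islr at 407 and 451 against 31.0 and 28.1, and Ogn at 33.0 and 51.3 against 1.15 and 1.53. These 5 differences follow from the selection and are given as a description.

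The 5 genes were not spread evenly over the selected cells. Ptn gave 59.2% and 59.6% of the UMIs of the 5 genes, a share that also depends on how well each gene is captured, and it was the highest of the 5 in 83.1% and 82.7% of the cells. Dcn led in 12.3% of the cells of each library. All 5 transcripts were found together in 11.3% and 13.4% of the cells, and 4 of the 5 in 47.9% and 42.3%. After each cell was thinned to 3000 UMIs, Ptn was found in 95.8% and 96.5% of the selected cells, against 29.8% and 30.3% of T and NK cells, whose median depths were 5996 and 5454 UMIs before thinning. Lum was found in 50.7% and 53.1% of the thinned selected cells and in 13.2% and 6.58% of the T and NK cells. Of the other tumour-marker cells after thinning, 30.6% and 33.7% held Ptn and 8.21% and 6.61% held Lum. Both genes took part in the selection, so their shares in the selected cells are a description. Without thinning, Ptn was found in 98.6% and 98.7% of the selected cells and Lum in 69.0% and 67.8%.

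The tumour genes of the rule were present at lower levels than in the other tumour-marker cells. Hmga2, a chromatin protein of embryonic and tumour cells, stood at 444 and 432 CPM against 794 and 884 CPM. Wnt7b, a secreted Wnt ligand, stood at 126 and 162 CPM against 201 and 271 CPM. Igf2bp2, an RNA-binding protein, was close in both, at 185 and 177 CPM against 181 and 153 CPM. A tumour-gene sum of 1000 CPM or more was held by 24.6% and 25.9% of the selected cells and by 68.7% and 75.9% of the others.

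Beyond the 12 genes of the rule, 10982 genes had at least 100 UMIs over the selected and other cells in each library. Of these, 334 (3.04%) were over 2-fold higher in the selected cells in both libraries, and 204 (1.86%) were over 2-fold lower in both. A gene is called higher or lower below only if it is among these. All 334 higher genes and 190 of the 204 lower genes had intervals clear of 0 in both libraries, and 11 genes passed 2-fold in opposite directions. The counts come from the cells that were sorted by the five-gene sum, so they describe the selected cells and test nothing.

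**Figure D1:**
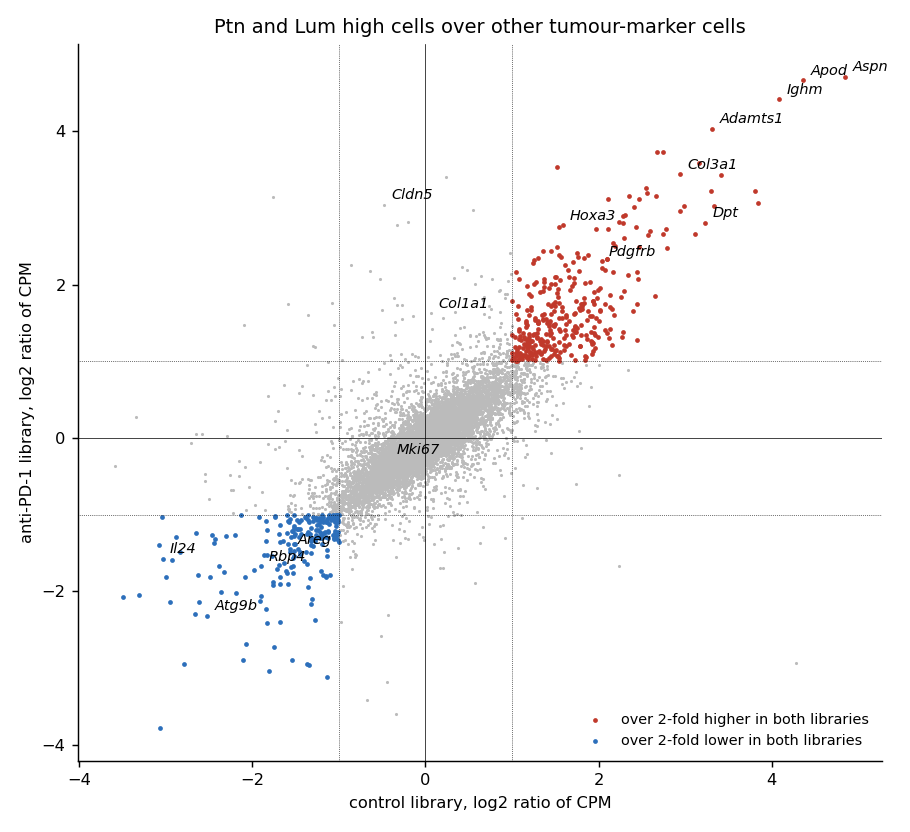
Log2 ratio of CPM, Ptn and Lum high cells over other tumour-marker cells, in the control library (horizontal) and the anti-PD-1 library (vertical), 1 point for each of 10982 genes. The 334 red points are over 2-fold higher and the 204 blue points over 2-fold lower in both libraries; Aspn, Apod and Ighm are the farthest red points, and Cldn5 and Col1a1 pass 2-fold in the anti-PD-1 library only.

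The largest ratios were those of a proteoglycan, a lipocalin and an immunoglobulin chain. Aspn, the gene of asporin, a small leucine-rich proteoglycan, rested on 87 and 148 UMIs in the selected cells, at 23.5 and 24.7 CPM against 0.818 and 0.943 CPM. Its log2 ratios of 4.85 (interval 4.34 to 5.36) and 4.71 (4.30 to 5.13) were the highest by the rule for named genes. Apod, a secreted lipid-binding lipocalin, followed with 93.1 and 177 CPM against 4.53 and 6.97 CPM. Col6a2, Col6a1, Col3a1 and Dpt, the gene of the collagen-binding dermatopontin, were also among the 15 genes with the largest ratios, as were the metalloprotease gene Adamts1, the ferroxidase gene Cp, the complement protease gene C1s1 and the transcription factor gene Osr2. Cdk15, Tle2, Dlg2, Hacd4 and Ighm made up the rest.

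Col3a1, the chain of type III collagen, stood at 9653 and 16336 CPM in the selected cells against 1256 and 1506 CPM in the others, a log2 ratio of 2.94 (2.93 to 2.96) and 3.44 (3.43 to 3.45). Every selected cell had at least 1 of its UMIs, with a median of 9390 and 13946 CPM per cell, against 525 and 912 CPM in the others. Col5a2 and Col5a1, chains of type V collagen, were higher as well, at 205 and 279 against 33.9 and 43.1 CPM for Col5a2. Col24a1 was the last of 4 higher genes among the 9 measured fibrillar collagen genes, and none was lower. The list median was 0.43 in control and 1.65 in anti-PD-1, against -0.02 and -0.06 over all measured genes. With the cells rich in type I collagen left out it was 0.62 and 0.33, and the same 4 genes were higher.

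Type I collagen did not follow type III. Col1a1 stood at 62.5 and 145 CPM in the selected cells against 59.9 and 47.0 CPM in the others, and Col1a2 at 58.2 and 182 against 43.3 and 38.9 CPM. In the anti-PD-1 library 1 cell held 71.6% of the selected cells' Col1a1 UMIs and 78.3% of their Col1a2 UMIs. With the 3 selected cells of 2000 CPM or more left out (1 control, 2 anti-PD-1), and such cells left out of the others too, Col1a1 stood at 36.4 and 25.5 CPM against 29.3 and 20.3 CPM. Col1a2 then stood at 33.7 and 15.9 CPM against 21.97 and 14.7 CPM. No UMI of either gene was found in 153 of 284 selected control cells (53.9%) and 376 of 544 anti-PD-1 cells (69.1%).

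Among the other collagens, 5 of 16 measured genes were higher and 1 was lower. Col6a2 and Col6a1, chains of the beaded-filament type VI collagen, stood at 789 and 1191 CPM and at 1088 and 1460 CPM, with log2 ratios of 3.41 and 3.43 and of 2.94 and 2.96. Col6a3, the third classic chain, had smaller ratios of 1.18 and 1.25. Col4a5 and Col4a6, basement membrane chains whose genes lie head to head, were both higher. Col4a6 stood at 58.7 and 120 CPM against 6.79 and 19.04 CPM. Col4a5 stood at 57.3 and 117 against 8.58 and 18.5 CPM.

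Several of the genes with high values lie next to each other in the genome (GENCODE annotation of GRCm38), a property the rule did not use and which was noticed after the values were seen. Dcn, Lum and Ogn are genes of the rule and are high by selection. Of 4 measured genes near the Dcn and Ogn loci, 2 were higher. How often higher genes lie side by side in general was not counted, so the pairs are a description. Dcn and Lum are neighbours on chromosome 10, with 47.0 kb between them. Ecm2, Aspn and Ogn lie in 1 row on chromosome 13, with Omd between Aspn and Ogn, with 11.7 kb from Ecm2 to Aspn and 40.5 kb from Aspn to Ogn. Ecm2 was higher with log2 ratios of 1.27 and 1.54, whereas Nol8 beyond Ogn was not, at -1.15 and -0.69. Col3a1 and Col5a2 lie 24.6 kb apart on chromosome 1, Col6a2 and Col6a1 85.2 kb apart on chromosome 10, and Col4a6 and Col4a5 1.31 kb apart on opposite strands of chromosome X. The genes of type I collagen lie alone, Col1a2 on chromosome 6 and Col1a1 on chromosome 11.

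The 250 bases before the RefSeq start sites of Ptn, Col3a1 and Col6a1, which were high together, and of Col1a2, which was not, are shown for comparison, 5′ to 3′ on the strand of the gene, from RefSeq on GRCm38.p6. Capitals mark every match on either strand to 3 core promoter motifs, the TATA box spelled TATAAA, the CAAT box spelled CCAAT and the GC box spelled GGGCGG.
Ptn, chr6:36810180-36810429, minus strand: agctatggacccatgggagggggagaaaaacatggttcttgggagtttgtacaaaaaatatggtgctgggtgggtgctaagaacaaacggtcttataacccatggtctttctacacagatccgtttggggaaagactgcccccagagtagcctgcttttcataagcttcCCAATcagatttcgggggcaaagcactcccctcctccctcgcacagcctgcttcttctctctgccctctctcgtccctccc
Col3a1, chr1:45311288-45311537, plus strand: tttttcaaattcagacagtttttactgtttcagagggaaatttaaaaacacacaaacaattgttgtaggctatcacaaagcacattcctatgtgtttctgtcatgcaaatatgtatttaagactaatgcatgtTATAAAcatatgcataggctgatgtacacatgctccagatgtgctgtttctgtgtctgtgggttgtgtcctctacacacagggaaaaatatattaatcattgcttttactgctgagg
Col6a1, chr10:76726045-76726294, minus strand: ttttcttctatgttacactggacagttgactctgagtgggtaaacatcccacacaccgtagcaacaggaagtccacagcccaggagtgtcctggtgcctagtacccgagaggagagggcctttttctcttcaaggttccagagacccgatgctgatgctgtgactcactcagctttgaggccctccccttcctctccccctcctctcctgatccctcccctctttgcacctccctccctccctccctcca
Col1a2, chr6:4505368-4505617, plus strand: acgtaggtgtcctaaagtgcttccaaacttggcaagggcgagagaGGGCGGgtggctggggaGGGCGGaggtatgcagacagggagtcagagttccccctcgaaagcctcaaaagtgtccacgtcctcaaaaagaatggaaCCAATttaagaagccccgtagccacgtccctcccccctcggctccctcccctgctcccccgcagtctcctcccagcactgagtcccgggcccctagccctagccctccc
Of 32851 promoters of the same length, 12.4% held the TATA box, 33.8% the CAAT box and 32.7% the GC box, on either strand. The Ptn window held 1 CAAT box, the Col3a1 window 1 TATA box and the Col6a1 window none of the 3, and the Col1a2 window held 1 CAAT box and 2 GC boxes. No motif was found in all 3 promoters of the high genes. The matches describe these letters only.

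Genes that act on collagen or bind it gave a mixed picture. Of 28 measured genes of collagen processing, Loxl2, a lysyl oxidase that cross-links collagen, P3h2, a prolyl hydroxylase, and Lox were higher and Pcolce2 was lower. The Lox call rested on 6 and 5 cells, and 1 anti-PD-1 cell held 88.9% of its UMIs there. Without the type I collagen-rich cells Lox stood at 0.503 CPM against 0.933 CPM in anti-PD-1 and was no longer higher. Loxl2 stood at 525 and 672 CPM against 197 and 201 CPM, whereas Lox reached 4.87 and 6.02 CPM in the selected cells. Bgn, the gene of biglycan, was higher by 1.54 and 2.75 and was 1 of 3 higher genes among 5 measured leucine-rich proteoglycans outside the rule. Of 15 matricellular genes, Fn1, Thbs2, Tnxb and Ccn4 were higher and none was lower. Fn1, the gene of fibronectin, stood at 2271 and 2869 CPM against 778 and 851 CPM. Emilin1 and Ltbp3, of elastic fibres, were higher among 23 genes of elastic fibres and basement membranes, and Lamc3 was lower on 1 and 5 UMIs.

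Matrix proteases were led by Adamts1, a secreted protease that cleaves proteoglycans. It stood at 606 and 855 CPM against 61.1 and 52.2 CPM, a log2 ratio of 3.31 (3.24 to 3.39) and 4.03 (3.98 to 4.09). After thinning, 61.6% and 63.4% of the selected cells held it, against 14.9% and 13.9% of the others and 16.6% and 10.5% of T and NK cells. Adamts5, Adamts12, Mmp3 and Mmp9 completed the 5 higher genes of 20 measured, and none was lower.

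**Figure D2:**
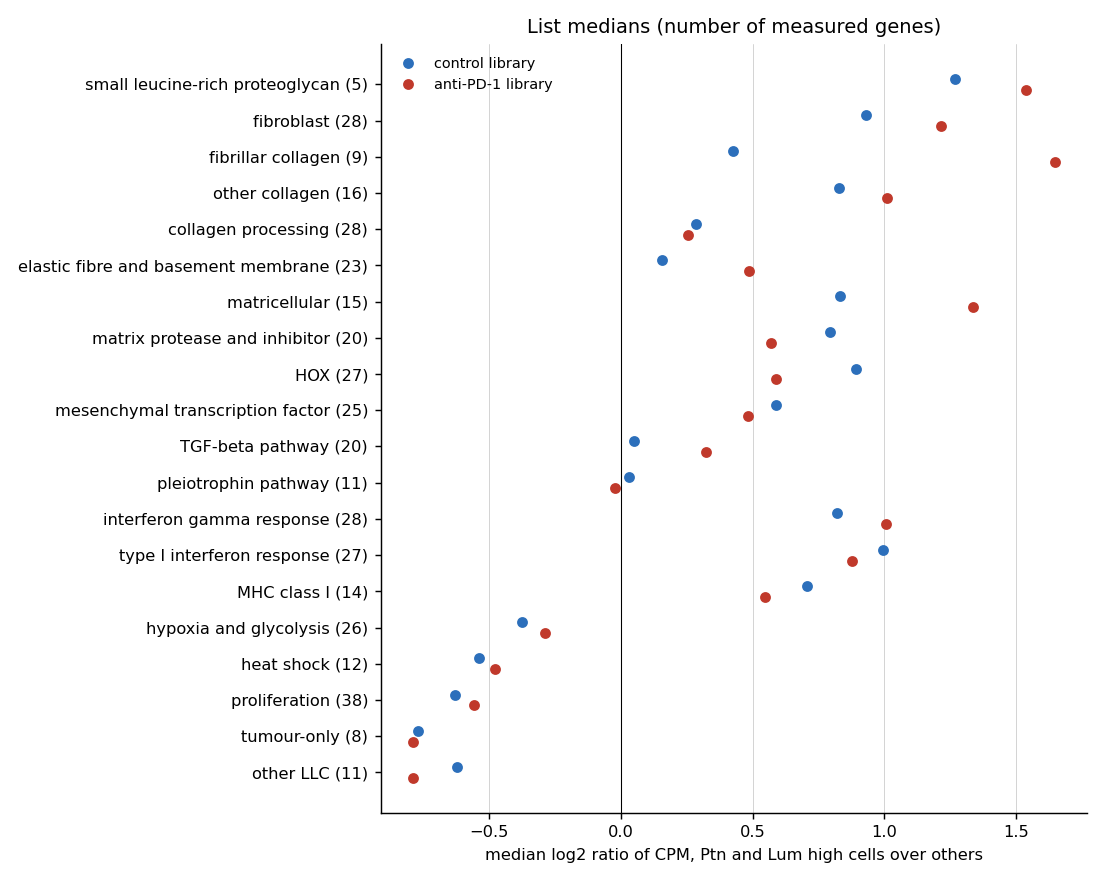
Median log2 ratio of CPM, Ptn and Lum high cells over other tumour-marker cells, for 20 gene lists in the control (blue) and anti-PD-1 (red) library, with the number of measured genes in brackets. Leucine-rich proteoglycan, fibroblast, collagen and interferon lists lie above 0, and proliferation, tumour-only and LLC lists below 0, in both libraries; the fibrillar collagen point of anti-PD-1 is 0.33 without cells rich in type I collagen.

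Receptors and ligands differed in part, and both platelet-derived growth factor receptors were higher. Pdgfrb stood at 214 and 277 CPM against 52.4 and 56.0 CPM, and Pdgfra at 329 and 409 against 95.4 and 178 CPM. Of 11 measured genes of the pleiotrophin pathway only Sdc2, a syndecan and pleiotrophin receptor, was higher, at 467 and 732 CPM against 230 and 356 CPM. The list median was 0.03 and -0.02. Receptor genes Ptprz1 and Alk were nearly absent, with 1 and 0 UMIs and with 0 UMIs in both libraries, and Mdk, the related ligand midkine, had 1 and 6 UMIs. Among secreted signals, Ccl2 and Ccl7, chemokines that attract monocytes, Cx3cl1 and Tslp were higher and Il11 and Il33 were lower, out of 19 chemokine and cytokine genes. Of 11 measured insulin-like growth factor genes, 2 were higher and 1 was lower. Igfbp7, among the higher, stood at 217 and 180 CPM against 79.1 and 33.3 CPM.

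Genes of body position and mesenchymal identity were higher in part. Of 27 measured HOX genes, which set position along the body axis, 9 were higher and none was lower. Hoxa3, Hoxa5, Hoxa6, Hoxa7, Hoxa9, Hoxa10, Hoxa11, Hoxc4 and Hoxc5 made up the 9, so 7 lay in the HoxA cluster. Hoxa3 stood at 17.9 and 16.4 CPM against 5.96 and 2.39 CPM, and Hoxc4 at 16.8 and 14.7 against 3.44 and 5.63 CPM. Osr2, a limb and palate mesenchyme factor, stood at 45.7 and 63.5 CPM against 7.24 and 7.12 CPM. It was 1 of 3 higher among 25 mesenchymal transcription factors, with Foxc1 and Hoxa5, and Ebf2 was lower on 4 and 6 UMIs.

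Some interferon response genes were higher in the selected cells of both libraries. Of 28 genes of the interferon gamma response 11 were higher and none was lower, with list medians of 0.82 and 1.01. Gbp4, Tgtp1 and Gbp9, GTPases of cell-autonomous defence, had log2 ratios of 1.75 and 2.42, 1.49 and 2.10, and 1.78 and 2.17. Of 27 genes of the type I interferon response 8 were higher and none was lower, among them Ifit1 (1.70 and 1.40), Oas2 (1.49 and 1.65) and Zbp1 (1.49 and 1.72). H2-K1, a classical MHC class I chain, was the 1 higher gene of 14 class I genes, at 1701 and 1202 CPM against 842 and 577 CPM. Guanylate-binding protein, Tgtp, Ifit, H2-Q and globin genes have near-identical copies, so the split of UMIs between copies is uncertain.

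Ighm, the heavy chain of IgM, stood at 80.3 and 68.8 CPM in the selected cells against 4.73 and 3.23 CPM, in 35.2% and 27.4% of the cells. After thinning, 20.1% and 16.9% of the selected cells held it, against 1.46% and 1.18% of the other tumour-marker cells. Cells of the same five-gene sum below the tumour-gene limit, described below, held it in 35.1% and 28.4%. The reference cells rich in type I collagen, also described below, held it in 0%. Among T and NK cells 14.6% and 11.8% held it. The exact Clopper-Pearson intervals of selected cells and of T and NK cells overlapped (15.6 to 25.2 against 9.36 to 21.2, and 13.9 to 20.3 against 5.56 to 21.3). Defining genes of B cells, looked up after the Ighm values were seen, were nearly absent: Ms4a1 and Ighd had 0 UMIs in both libraries, and Igkc had 3 and 0. Cd79a had 24 and 49 UMIs.

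All 38 measured proliferation genes had log2 ratios below 0 in both libraries, where 4953 of all 10982 measured genes were. The list medians were -0.63 and -0.56, yet only Ccne1, a cyclin of S phase entry, was over 2-fold lower in both. Summed, the 38 genes stood at 4469 and 4252 CPM against 6866 and 6120 CPM. Mki67 still stood at 122 and 194 CPM among selected cells of 5000 to 15000 UMIs, against 234 and 242 CPM in others of that depth. Heat shock genes had medians of -0.54 and -0.48 and hypoxia genes -0.37 and -0.29, with no gene of either list lower and Eno2 higher. Atg9b, an autophagy protein, had the lowest ratios by the rule, at 40.3 and 95.4 CPM against 231 and 476 CPM. Transporters Slc14a1, Slc4a8, Slc4a11 and Atp13a4, with Tmem40, Sh2d5, Enthd1, Tmem200a and Rbp4, followed. Of 11 further LLC genes, Il24, Msln and Sox9 were lower and none was higher.

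Depth moved with the selection, so the ratios were also taken among cells of 5000 to 15000 UMIs, where the selected cells had medians of 8743 and 8432 UMIs and the others 10556 and 10090. Col3a1 then had log2 ratios of 2.82 and 3.29, Col6a2 3.24 and 3.44, Adamts1 3.64 and 4.15, and Apod 4.69 and 4.70. The selection was also repeated from the start within that depth range, which gave 118 control and 274 anti-PD-1 selected cells. With these newly selected cells, 218 genes were higher and 382 lower. These counts therefore do not describe the same cells as the ratios above.

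Whether the selected cells were tumour or stroma was examined against reference cells rich in type I collagen. These were 29 control and 21 anti-PD-1 cells with at least 3000 UMIs, at least 2000 CPM of Col1a1 and Col1a2 together, under 300 CPM of the tumour genes and under 300 CPM of the immune genes. They held fibroblast genes at high levels, for example Mmp2 at 1031 and 1661 CPM and Postn, a matrix protein of activated fibroblasts, at 1369 and 1232 CPM. The control reference also held 2544 CPM over 12 endothelial genes, against 536 CPM in anti-PD-1, so it was not free of other cells. Because it was chosen by type I collagen, that gene pair is a description here.

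Of 35 fibroblast genes in the files, 28 were measured, and 10 of them were higher in the selected cells than in the other tumour-marker cells and none was lower. Without the cells rich in type I collagen 9 were higher, and the list median went from 1.22 to 0.64 in anti-PD-1. Relative to the reference, however, 22 of the 28 were lower in the selected cells with intervals clear of 0 in both libraries, where 5.06% of all measured genes were. Of these, 12 were over 10-fold lower, against 1.28% of all measured genes. Without Col1a1 and Col1a2, which defined the reference, the counts were 20 and 10 of 26. Only Pdgfra and Pcolce were higher there. Postn stood at 10.0 and 5.18 CPM in the selected cells, Lox at 4.87 and 6.02 CPM, Mmp2 at 11.6 and 1.84 CPM and Thy1 at 21.9 and 7.35 CPM. The reference held Lox at 1787 and 1271 CPM and Thy1 at 1844 and 2036 CPM. Mfap4 had 0 UMIs in both libraries of the selected cells, Fap 0 in control and Tcf21 0 in anti-PD-1. Col3a1 was also lower than in the reference, at 45120 and 61539 CPM there, and Dcn, Col6a2 and Dpt were lower by 1.01 to 1.53 on the log2 scale.

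Ptn stood at 92.6 and 58.4 CPM in the reference cells, 25.1-fold and 56.1-fold below the selected cells, a difference that the selection by the five-gene sum largely sets. The rule did not use the next 2 genes. Col4a6, at 0 UMIs in the reference of both libraries, was at least 10.99-fold and 8.20-fold higher in the selected cells, with 0 taken as 3 UMIs per library. Mmp3, a stromelysin, stood at 965 and 1220 CPM against 94.3 and 141 CPM in the reference.

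**Figure D3:**
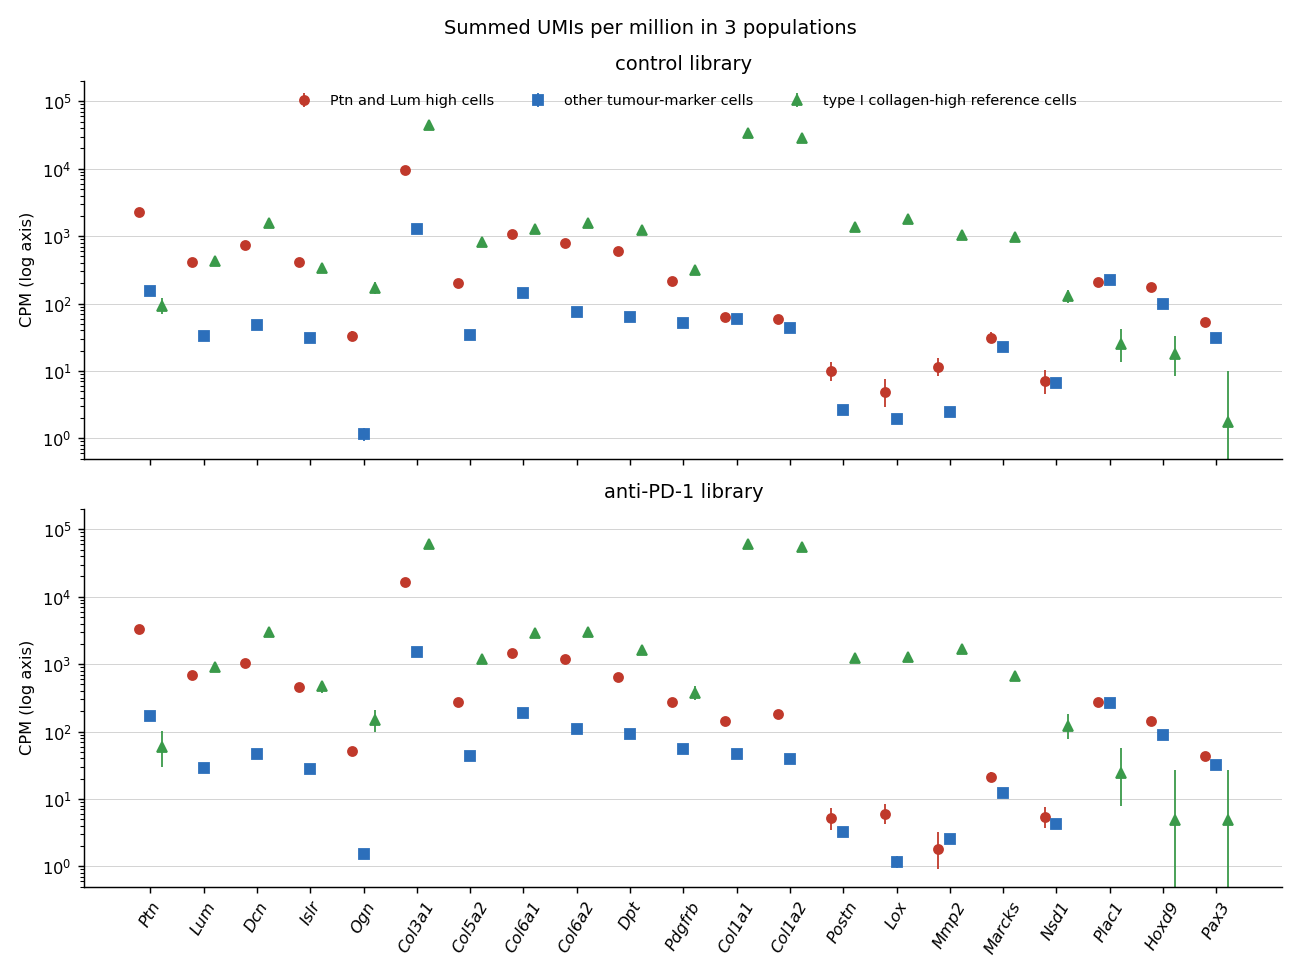
CPM of summed UMIs (log axis) for 21 genes in Ptn and Lum high cells (red), other tumour-marker cells (blue) and type I collagen-high reference cells (green), by library, with exact Poisson intervals as bars. Ptn is highest in the red group, Col1a1 to Nsd1 are high in green only, and Plac1, Hoxd9 and Pax3 are low in green.

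Several genes low in the reference, picked after their values were seen, stood at higher levels in the selected cells. Plac1, a placental gene on the tumour-only list described below, stood at 210 and 279 CPM in the selected cells, 225 and 261 CPM in the other tumour-marker cells and 24.9 and 24.3 CPM in the reference. Hoxd9 stood at 177 and 142 CPM against 17.8 and 4.87 CPM in the reference, and Pax3, a factor of embryonic muscle and neural crest, at 53.3 and 43.8 against 1.78 and 4.87 CPM. Gata4 had 0 UMIs in the reference and stood at 27.3 and 34.1 CPM in the selected cells, at least 5.12-fold and 2.33-fold higher. Of 27 HOX genes, 7 were higher than in the reference with intervals clear of 0 in both libraries and none was lower. Over all measured genes 24.4% were higher by that measure, so the HOX share is near the background. Tumour-gene UMIs were also found in T and NK cells, as given above, and the part of free RNA or doublets in these levels was not tested. A list of 8 tumour-only genes, set from tumour cells low in the 5 genes against immune and endothelial cells, summed to 1497 and 1813 CPM in the selected cells. The others held 2460 and 3153 CPM and the reference 1027 and 1032 CPM. Angptl2 on this list is also expressed by the reference, at 724 and 677 CPM. The 1233 and 1960 tumour cells that set the list are among the others. The lower sum of the selected cells is thus partly fixed by the choice of genes. Relative to the others, 7 of the 8 genes had log2 ratios below 0 in both libraries, and Plac1 was the exception. Over all measured genes, 4953 of 10982 were below 0 in both. The list medians were -0.77 and -0.79. With a tumour-gene limit of 1000 CPM they were -0.31 and -0.17.

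Genes of the host side stood between the other tumour-marker cells and the reference. Among 63 host-only genes, at 50 CPM or more in both immune and endothelial cells and at least 10-fold lower in tumour cells, the summed level was 1480 (1441 to 1520) CPM in control and 1526 (1495 to 1557) CPM in anti-PD-1. The other tumour-marker cells held 1088 and 866 CPM and the reference 12362 and 6881 CPM. The tumour cells that set the list are among the others, so the low level of the others is partly fixed by the choice of genes. The immune and endothelial cells that also set it held 30668 and 35786 CPM and 26797 and 25590 CPM. Against the 58 cells with no tumour-gene UMI described below, which held 5487 and 2948 CPM, the log2 ratio was -1.89 and -0.95. Against the reference, which was added after seeing the data, it was -3.06 and -2.17. Marcks, a membrane-bound signalling protein, stood at 31.1 and 21.2 CPM in the selected cells, 22.8 and 12.3 CPM in the others and 974 and 672 CPM in the reference. Nsd1, a histone methyltransferase, stood at 7.03 and 5.35 CPM, 6.67 and 4.24 CPM, and 128 and 122 CPM in the same order. Trim44 stood at 2.71 and 2.51 CPM against 96.1 and 117 CPM in the reference.

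The selected cells exceeded the others on this list mainly in 2 genes. Of 26 host-only genes also found in the reference, Ccl7 and Thbs1 were over 100 CPM in the selected cells of both libraries. Thbs1, the gene of thrombospondin, stood at 311 and 412 CPM against 196 and 119 CPM. The other 24 genes summed to 551 and 464 CPM in the selected cells, 437 and 354 CPM in the others, and 6844 and 4393 CPM in the reference. The 2 genes were left out for their level in the selected cells. The low sum of the other 24 in these cells is thus partly fixed by that choice.

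Marker lists of other host cells gave low values. Summed over 11 pericyte genes, the selected cells held 222 and 294 CPM, nearly all of it Pdgfrb, while Rgs5, Cspg4, Notch3, Kcnj8 and Abcc9 had 0 to 5 UMIs each. The 12 endothelial genes summed to 82.0 and 103 CPM against 125 and 72.6 CPM in the others. In anti-PD-1, 1 cell held 95.7% of the Cldn5 UMIs, 61.5% of the Pecam1 UMIs and 64.1% of the Mcam UMIs. The 11 macrophage genes summed to 805 and 803 CPM against 863 and 1161 CPM, most of it Gpnmb, which the other tumour-marker cells also held at 480 and 772 CPM. Schwann genes summed to 22.2 and 18.4 CPM, with Sox10 at 0 UMIs in both libraries, and tendon genes to 21.9 and 14.4 CPM, with Tnmd and Fmod at 0.

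Cells with the same five-gene sum were also found below the tumour-gene limit. There were 74 such control and 162 anti-PD-1 cells with type I collagen under 2000 CPM. They held 502 and 517 CPM of the 24 host-only genes and 1211 and 1188 CPM of the tumour-only genes. Among cells with no UMI of the 4 tumour genes at all, 58 reached the five-gene limit, and they fell apart by type I collagen. The 10 control and 36 anti-PD-1 cells under 2000 CPM held Ptn at 5750 and 8284 CPM, Plac1 at 277 and 248 CPM and Marcks at 52.0 and 32.7 CPM. The 2 control and 10 anti-PD-1 cells above held Ptn at 554 and 84.1 CPM on 9 and 7 UMIs, Plac1 on 0 and 1 UMI, and Marcks at 739 and 504 CPM. Ptn and type I collagen took part in choosing and splitting these cells, so their values are a description. The whole tumour-only list separated the kinds little, at 1091 and 1141 CPM in the first and 985 and 853 CPM in the second, all below the selected cells. The host-only list stood at 2407 and 1889 CPM in the first and at 16433 and 5669 CPM in the second, where control rests on 2 cells.

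**Figure D4:**
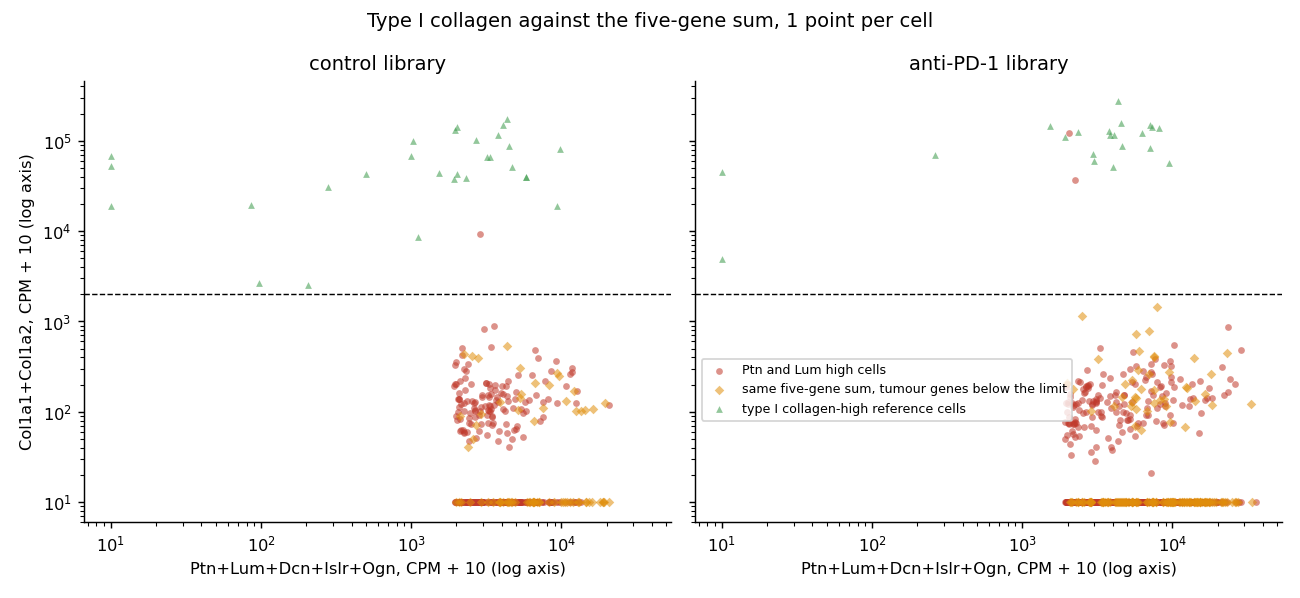
Each cell's Col1a1 and Col1a2 sum (vertical) against its five-gene sum (horizontal), both as CPM + 10 on log axes, for Ptn and Lum high cells (red), cells of the same five-gene sum below the tumour-gene limit (amber) and reference cells (green). The dashed line marks 2000 CPM, and 825 of the 828 red cells lie below it.

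From the lowest to the highest range of tumour-gene CPM within the selected cells, Ptn, Lum, Islr and Ogn fell and Dcn rose. The limits on both sums shape this. Cells with 300 to 500 CPM of the tumour genes (74 and 149 cells) held Ptn at 3145 and 4641 CPM and Col3a1 at 11802 and 23379 CPM. Cells with 1000 CPM or more (70 and 141 cells) held Ptn at 1358 and 1768 CPM and Col3a1 at 6890 and 8840 CPM. Dcn stood at 596 and 1049 CPM in the first range and at 1026 and 1164 CPM in the second. Host-only genes summed to 1423 and 1299 CPM in the first and to 1635 and 1504 CPM in the second, and Plac1 stood at 306 and 326 CPM and at 174 and 228 CPM. The whole tumour-only list went the other way from Plac1, at 1232 and 1256 CPM in the first and 2091 and 2598 CPM in the second. Cells of 500 to 1000 CPM of the tumour genes (140 and 254 cells) held host-only genes at 1414 and 1666 CPM. The order of the ranges by host-only sum thus differed between the libraries.

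When tumour-marker cells and the 58 tumour-gene-free cells were clustered together without the 12 genes of the rule, 537 of the 828 selected cells (64.9%) fell into 1 cluster of 842 cells. Its leading genes were Adamts1, Apod, Ighm, Col3a1, Col6a2, Tle2, Dpt, Cp, Col6a1 and C1s1, its Col1a1 level was 28.3 CPM, and it held no cell of 2000 CPM or more of type I collagen. Both libraries gave cells to it, 376 and 466, of which 200 and 337 were selected. A further 147 selected cells (17.8%) lay in a cluster whose 10 leading genes were Col6a2, Depdc1b, Col6a1, Sapcd2, Aspm, Nusap1, F2r, Arhgef39, Fam83d and Cenpf, several of which act in mitosis. The cluster led by Col1a2 and Col1a1 held 29 cells, 3 of them selected. Of the 58 tumour-gene-free cells, 36 lay in the first cluster and 12 in the type I collagen cluster. Among a selected cell's nearest neighbours, a median of 73.3% and 66.7% were selected cells, against 0% for the others. The cells were chosen from the same counts, so this describes the grouping and does not test it.

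Along the whole range of tumour-marker cells, most matrix genes of the plot climbed over many deciles. The 8280 cells were ranked by the five-gene sum and divided into deciles, and the highest decile is the selected cells. The sum was 0 in 484 control and 693 anti-PD-1 cells, and anti-PD-1 cells at 0 lay in both deciles 1 and 2. Median depths in deciles 1, 2 and 10 were 11470.5, 31171.5 and 10332 UMIs in control. In anti-PD-1 they were 9127.5, 14562.5 and 8833.5 UMIs. Col3a1 went from 435 and 880 CPM in the lowest decile to 4362 and 4716 CPM in decile 9 and 9653 and 16336 CPM in decile 10. Adamts1 behaved differently: it lay between 42.0 and 66.9 CPM in the first 8 deciles of either library, at 120 and 109 CPM in decile 9, and at 606 and 855 CPM in decile 10. Plac1 stayed between 209 and 236 CPM in control and between 246 and 279 CPM in anti-PD-1. Areg, an EGF receptor ligand, went from 449 and 518 CPM to 127 and 152 CPM.

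**Figure D5:**
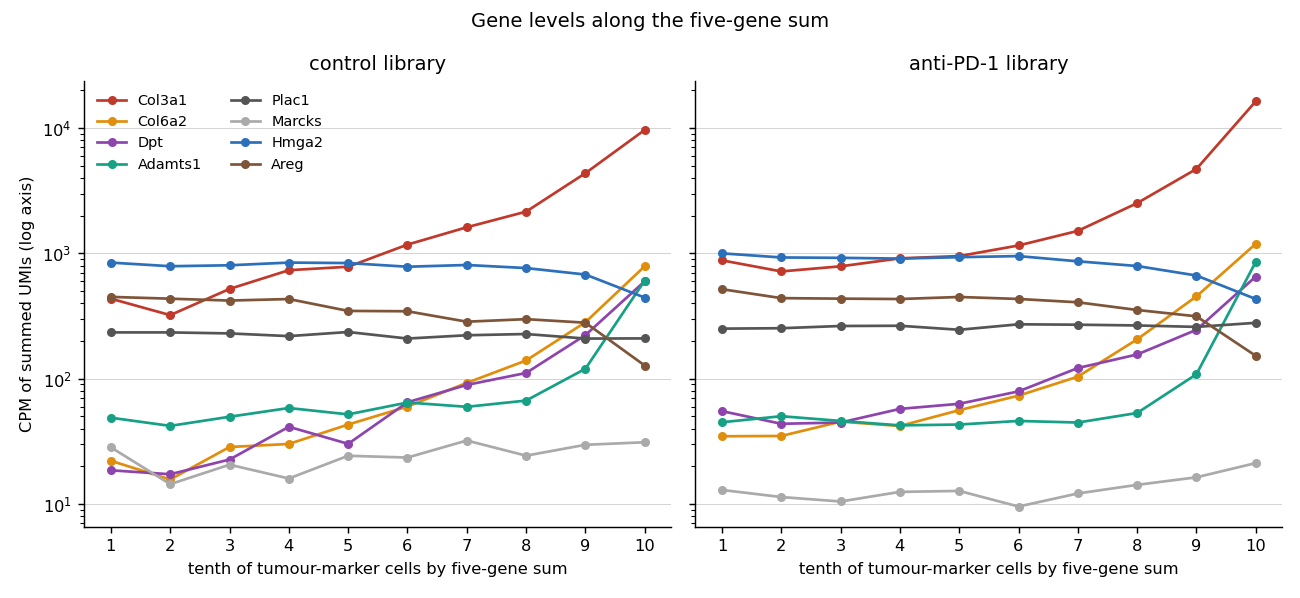
CPM of summed UMIs (log axis) of 8 genes in deciles of the tumour-marker cells ranked by the five-gene sum, by library. Col3a1, Col6a2 and Dpt climb over many deciles, Adamts1 climbs in the last 2, Plac1 is level, and Hmga2 and Areg go down at the end.

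Genes most like the five-gene sum over the tumour-marker cells were again collagens and their partners. By the lower of the 2 libraries' Spearman coefficients, the first was Col3a1 (rho 0.69 over 3169 control and 0.58 over 5111 anti-PD-1 cells), followed by Fn1 (0.56 and 0.52), Col6a1, Col6a3, Col6a2, Col5a1, Dpt, Loxl2, Col16a1 and Tmem176b. These cells share 2 libraries and differ in depth, so the coefficients are descriptive.

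Between the libraries, the selected anti-PD-1 cells differed from the selected control cells in few genes. Of 9428 genes with at least 100 UMIs over the selected cells, 31 (0.329%) were over 2-fold higher in anti-PD-1 and 67 (0.711%) over 2-fold lower. In the other tumour-marker cells, 29 and 83 of the same genes passed 2-fold. The conditions were 1 library each, so treatment, tumour and library cannot be told apart.

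Genes of the interferon gamma response accounted for many of the lower genes. Of 27 measured, 17 were over 2-fold lower and none higher, with a median of -1.09, against -1.27 in the other tumour-marker cells. Gbp4 stood at 70.9 CPM in control and 10.2 CPM in anti-PD-1, a log2 ratio of -2.80 (-3.22 to -2.39), and Gbp2 at 497 and 131 CPM. The type I interferon list had a median of 0.15 over 26 genes, with none lower. Globin genes Hbb-bs and Hba-a2 were lowest of all at -3.03 and -2.93, close to -3.11 and -3.12 in the other cells, and the granzyme genes Gzmd, Gzmf and Gzmc, of cytotoxic lymphocytes, had -2.69, -2.59 and -1.87. Aldh1l2 had -1.88, and Prl8a9, at -1.97, rested on 1 control cell with 72.6% of its UMIs.

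Among the higher genes, Saa3, an acute-phase protein, stood at 4.87 CPM in control and 260 CPM in anti-PD-1, but 5 of the 544 anti-PD-1 cells held 93.7% of its UMIs. For Lcn2, an iron-binding protein of inflammation, at 9.20 and 38.9 CPM, 5 cells held 76.4%. Sgk1, Inka2, Ifi27l2a, Atg9b and Prag1 had log2 ratios of 1.36, 1.29, 1.27, 1.24 and 1.14. Col1a2 and Col1a1, at 1.65 and 1.21, rested on the single cell named above. Without the cells rich in type I collagen, both stood lower in anti-PD-1 than in control.

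The matrix genes differed less. Col3a1 was 0.76 higher on the log2 scale in the selected anti-PD-1 cells (0.74 to 0.78), against 0.26 in the others, and the basement membrane chains Col4a5 and Col4a6 were 1.03 and 1.03 higher, against 1.11 and 1.49 in the others. Ptn, Lum and Dcn were 0.50, 0.73 and 0.47 higher. These genes took part in the selection over the pooled libraries. Since a pooled limit on their sum was applied to both libraries, the ratios describe how far above it the cells of each library lay.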

How the data were processed

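The authors deposited 1 matrix of UMI counts per library for 19070 features. The submitters' processing notes name Cell Ranger 7.0.1 and mm10, and per the file headers the version was 9.0.1. The labels name both a GEM-X Flex kit and a 3′ protocol, and do not say which was used. The members, gene lists and comparisons were chosen with earlier results of these data known.

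Deposited counts were filtered and summed per library and population, scaled to CPM and compared as log2 ratios with exact conditional Poisson 95% intervals. PCR and cell sampling are not covered by them. A gene was measured with at least 100 UMIs and is named if it had the 15 highest or 10 lowest ratios (lower or upper of both libraries, at least 200 UMIs and 20 CPM), the 10 highest or lowest between libraries, or up to 4 per list. Other named genes (such as Mmp2, Thy1, Marcks, Nsd1, Trim44, Hoxd9, Pax3, Gata4, Plac1, Areg, Cd79a and Nol8) were chosen after their values were seen. Some genes that the rule names are not reported here. Tumour-only and host-only genes were set from these data with a limit of 50 CPM and 10-fold. Cells were clustered with scanpy 1.11.5. Scrublet called 0 of 8395 and 1 of 9422 cells, so it had not worked and no doublet was removed. The intervals were tested on simulated data. Python 3.11.15, numpy 2.4.6, scipy 1.17.1, pandas 2.3.3 and matplotlib 3.10.9 were used. Each group was 1 library, so no group test was made. Promoter sequences came from RefSeq, and gene positions from GENCODE vM21.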

Additional observations from a re-analysis of the deposited data

Results flagged for a closer look

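The following genes had log2 ratios of opposite sign in the 2 groups set side by side. The groups are cell populations for anti-PD-1 over control, and libraries for selected over other tumour-marker cells. Each condition was 1 library, and the difference was not tested. For anti-PD-1 over control, the value in the Ptn and Lum high cells is given before that in the other tumour-marker cells. Among matrix genes the ratios were 0.50 and -0.23 for Adamts1, 1.65 and -0.15 for Col1a2, 1.21 and -0.35 for Col1a1, 0.50 and -0.72 for Bgn, 0.17 and -0.20 for Fbn1, -0.95 and 0.29 for Postn, 0.39 and -0.32 for Tgfbi, and 0.41 and -0.72 for Thbs1. The genes of the rule Lum, Dcn and Islr had 0.73 and -0.22, 0.47 and -0.07, and 0.15 and -0.14. Inflammatory and immune genes had 2.08 and -0.33 for Lcn2, 0.39 and -0.08 for Ccl7, 1.08 and -0.56 for Csf3r, and -0.10 and 0.69 for Gpnmb. The endothelial genes Mcam and Cldn5 had 1.89 and -0.47, and 0.86 and -2.66.

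For selected over other tumour-marker cells, the control value is given before the anti-PD-1 value. The ratios were -0.47 and 0.32 for Sgk1, 0.88 and -0.49 for Gzmc, -1.81 and 0.55 for Mcam, -0.73 and 1.31 for Pecam1, and -1.15 and 0.49 for Csf3r. In the selected anti-PD-1 cells, 1 cell held 95.7% of the Cldn5 UMIs, 64.1% of those of Mcam and 61.5% of those of Pecam1.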

How the results depend on the processing

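No paired analysis was possible because each group was 1 library, and for the same reason no library was left out. Over all alternatives 137 values stayed within the tolerance and 52 moved. No list median or log2 ratio changed sign, and counts, shares and CPM sums cannot. For list medians the tolerance was the interval of the median over genes, 0.43 to 1.84 for the fibroblast list in control. Alternatives with 5000 to 15000 UMIs, without type I collagen cells, without the tumour-gene limit, and with the type I collagen reference were added after seeing the data. The causes of the differences were not tested.

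The 334 higher genes became 113 with a tumour-gene limit of 1000 CPM, 203 with 0 immune-gene UMIs, 204 with the top 20% of cells and 218 with 5000 to 15000 UMIs. The 204 lower genes became 13, 370, 46 and 382 under the same settings, 548 with the top 5%, 116 with the mean of log2(CPM + 100) as the score, and 349 with no tumour-gene limit and no type I collagen cells. Between libraries the 31 higher genes became 18 at 1000 CPM. The 67 lower genes became 37 with 0 immune-gene UMIs, 32 with the top 5%, 38 with 5000 to 15000 UMIs and 43 without the tumour-gene limit. The fibroblast list median was 0.64 in anti-PD-1 with the top 5% and 2.61 in control after thinning.

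Host-only genes in the selected anti-PD-1 cells summed to 1482 CPM with at least 5000 UMIs, 1128 at 1000 CPM, 1462 with at least 3 tumour-gene UMIs, 1587 with the top 5%, 1228 with the top 20%, 1584 with the top 10% within each library, 1603 after thinning, 1433 as a mean over cells, 1450 with 5000 to 15000 UMIs and 1663 without the tumour-gene limit. In control they summed to 1399 with 0 immune-gene UMIs, 1426 with the top 5%, 1388 with the top 20%, 1436 within the library, 1542 with the log score, 1783 after thinning, 1612 with 5000 to 15000 UMIs and 1546 without the tumour-gene limit. Their log2 ratio to cells free of tumour-gene UMIs was -1.89 and -0.95, control first, and to the type I collagen reference -3.06 and -2.17.

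The share of T and NK cells past the tumour-gene limit, control first, was 76.4% and 72.1% with at least 5000 UMIs, 19.2% and 28.9% at 1000 CPM, and 49.0% and 46.1% with at least 3 tumour-gene UMIs. For control endothelial cells it was 18.5% at 1000 CPM and 35.7% with 5000 to 15000 UMIs. The selected share of tumour-marker cells was 11.5% and 9.12% at 1000 CPM, 3.57% and 5.89% with the top 5%, and 20.7% and 19.5% with the top 20%, so the order of the libraries differed between settings.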
